A study of Homo sapiens with 16 samples.

Results

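Xenobiotic receptors and drug-response genes were measured here as 10 members fixed by name, of 60642 gene symbols in the deposited expression table. They are the aryl hydrocarbon receptor AHR, its partner ARNT, its repressor AHRR, the AHR-driven genes CYP1A1, CYP1B1 and TIPARP, the pregnane X receptor NR1I2 (PXR), the drug-metabolising enzyme CYP3A5, and the efflux pumps ABCB1 and ABCG2. The rule lists names and sets no threshold on a measured value, but the names were chosen with earlier results of these data known. The study grew LNCaP cells, an androgen-sensitive human prostate cancer line from a lymph node metastasis (clone FGC, so that all values come from 1 clonal line), and sequenced polyadenylated RNA from 16 cultures in 8 groups of 2 biological replicates. All groups shared 72 h of culture with 5% serum, then 48 h of androgen depletion in charcoal-stripped serum, and 48 h of treatment. The androgen dihydrotestosterone (DHT) was given at 10 nM, and each antiandrogen, called an antagonist below, at 10 µM, namely apalutamide (APA, written ARN in the sample names), bicalutamide (BIC) or enzalutamide (ENZ). VEH cells received both solvents, ethanol and DMSO, with no drug. BIC.VEH, ENZ.VEH and APA.VEH cells received an antagonist without DHT, DHT cells received the androgen alone, and BIC.DHT, ENZ.DHT and APA.DHT cells received an antagonist together with DHT. The comparisons ask whether the drugs move xenobiotic-response genes, with and without the androgen.

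AHR is a ligand-activated transcription factor that waits in the cytoplasm with chaperones, enters the nucleus when it binds a planar aromatic compound, pairs with ARNT and binds xenobiotic response elements in DNA. Its targets include the CYP1 monooxygenases and its own brakes, AHRR, which competes with AHR for ARNT, and TIPARP, which modifies AHR by ADP-ribosylation. PXR pairs with a retinoid X receptor and, mainly in liver and intestine, raises CYP3A enzymes and efflux pumps in response to many drugs. The efflux pumps ABCB1 (P-glycoprotein) and ABCG2 (breast cancer resistance protein) carry drugs out of cells and are known from drug-resistant tumours.

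LNCaP cells held the AHR arm at low to moderate levels and showed hardly any PXR. ABCG2 RNA was about 8-fold lower with DHT than with VEH and was higher again when ENZ or APA was given with DHT. CYP1A1 was lower with DHT and higher with each antagonist on top of DHT in both replicates, a pattern that passed the test with the replicate number as a block and not without it. AHR, ARNT, TIPARP and CYP3A5 passed no test in any of 16 comparisons. No member passed the test when an antagonist was given without DHT.

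Promoter stretches of 4 genes are shown because they belong to the AHR-driven genes and to the pump on which the results turn. Each holds the 250 bases before an annotated start, 5′ to 3′ on the gene's strand, from RefSeq on GRCh38.p14. For each gene the first listed window that held the core described next was chosen. A match in each stretch was therefore fixed by that choice and is no result. Capitals mark the core of the xenobiotic response element, GCGTG, or its reverse complement CACGC.
CYP1A1, chr15:74725529-74725778, minus strand: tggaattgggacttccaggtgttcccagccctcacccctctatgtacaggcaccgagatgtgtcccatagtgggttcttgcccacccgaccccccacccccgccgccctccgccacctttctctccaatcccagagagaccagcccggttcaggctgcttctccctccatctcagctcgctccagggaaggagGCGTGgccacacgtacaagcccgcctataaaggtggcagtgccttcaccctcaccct
AHRR, chr5:321464-321713, plus strand: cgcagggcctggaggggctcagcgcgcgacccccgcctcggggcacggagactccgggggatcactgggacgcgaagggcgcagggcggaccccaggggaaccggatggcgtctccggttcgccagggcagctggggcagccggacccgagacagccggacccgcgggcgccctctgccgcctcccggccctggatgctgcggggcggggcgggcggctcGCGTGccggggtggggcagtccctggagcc
TIPARP, chr3:156674340-156674589, plus strand: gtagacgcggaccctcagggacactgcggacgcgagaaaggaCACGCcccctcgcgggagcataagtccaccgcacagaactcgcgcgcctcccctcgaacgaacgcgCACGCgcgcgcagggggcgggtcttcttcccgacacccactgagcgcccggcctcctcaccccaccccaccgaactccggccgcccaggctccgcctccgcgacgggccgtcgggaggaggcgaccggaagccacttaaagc
ABCG2, chr4:88158860-88159109, minus strand: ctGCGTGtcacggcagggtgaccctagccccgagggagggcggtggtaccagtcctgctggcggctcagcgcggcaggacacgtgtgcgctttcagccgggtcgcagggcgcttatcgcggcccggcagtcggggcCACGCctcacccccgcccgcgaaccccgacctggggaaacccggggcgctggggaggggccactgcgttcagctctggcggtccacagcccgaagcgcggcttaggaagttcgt

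The first matching base lay 57 bases before the CYP1A1 start and 30 bases before the AHRR start. TIPARP had matches 208 and 142 bases before its start, and ABCG2 had matches 248 and 114 bases before this start. Over full windows of 300 bases, from 250 before to 50 after a start, 9 members had 18 windows, of which 9 held the core, or 50%. Among all 35116 windows 36.5% held it, so that the core is common in such windows. It was found in 3 of the 5 ABCG2 windows, in 1 of the 3 TIPARP windows, in both AHRR windows, in the AHR window and in 1 of the 2 ABCB1 windows. The 3 ABCG2 windows with the core overlap one another, and 2 of them hold the same matches. The share of member windows therefore counts some matches more than once. ARNT, CYP3A5 and NR1I2 windows did not hold these letters, and CYP1B1 had no entry. The palindromic androgen response element, read strictly as AGAACA and TGTTCT separated by any 3 bases, was in 0 of the 18 member windows and in 1 of all windows. These are matches of letters in short windows, and no binding was measured.

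Levels are given in TPM, transcripts as a share of all transcripts in a library, which are scaled for transcript length, so that genes can be set side by side within a library. In order of the median over 16 libraries, ARNT stood at 32.2 TPM, CYP3A5 at 7.43, CYP1A1 at 6.33, TIPARP at 4.35, ABCG2 at 0.905, AHR at 0.81 and AHRR at 0.40. The remaining members had a median of 0. ARNT was above CYP3A5 in 16 of 16 libraries, and TIPARP was above ABCG2 in 16 of 16. CYP3A5 exceeded CYP1A1 in all 8 second replicates but in 3 of the 8 first replicates, CYP1A1 exceeded TIPARP in 13 of 16 libraries, and ABCG2 exceeded AHR in 8 of 16, so these neighbours did not keep their order. A test was run on the 6 members that reached 1 TPM in at least 2 libraries (AHR, ARNT, CYP1A1, TIPARP, CYP3A5 and ABCG2), among 16636 genes tested. The other 4 members stayed below that level and are described by their values.

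**Figure D1:**
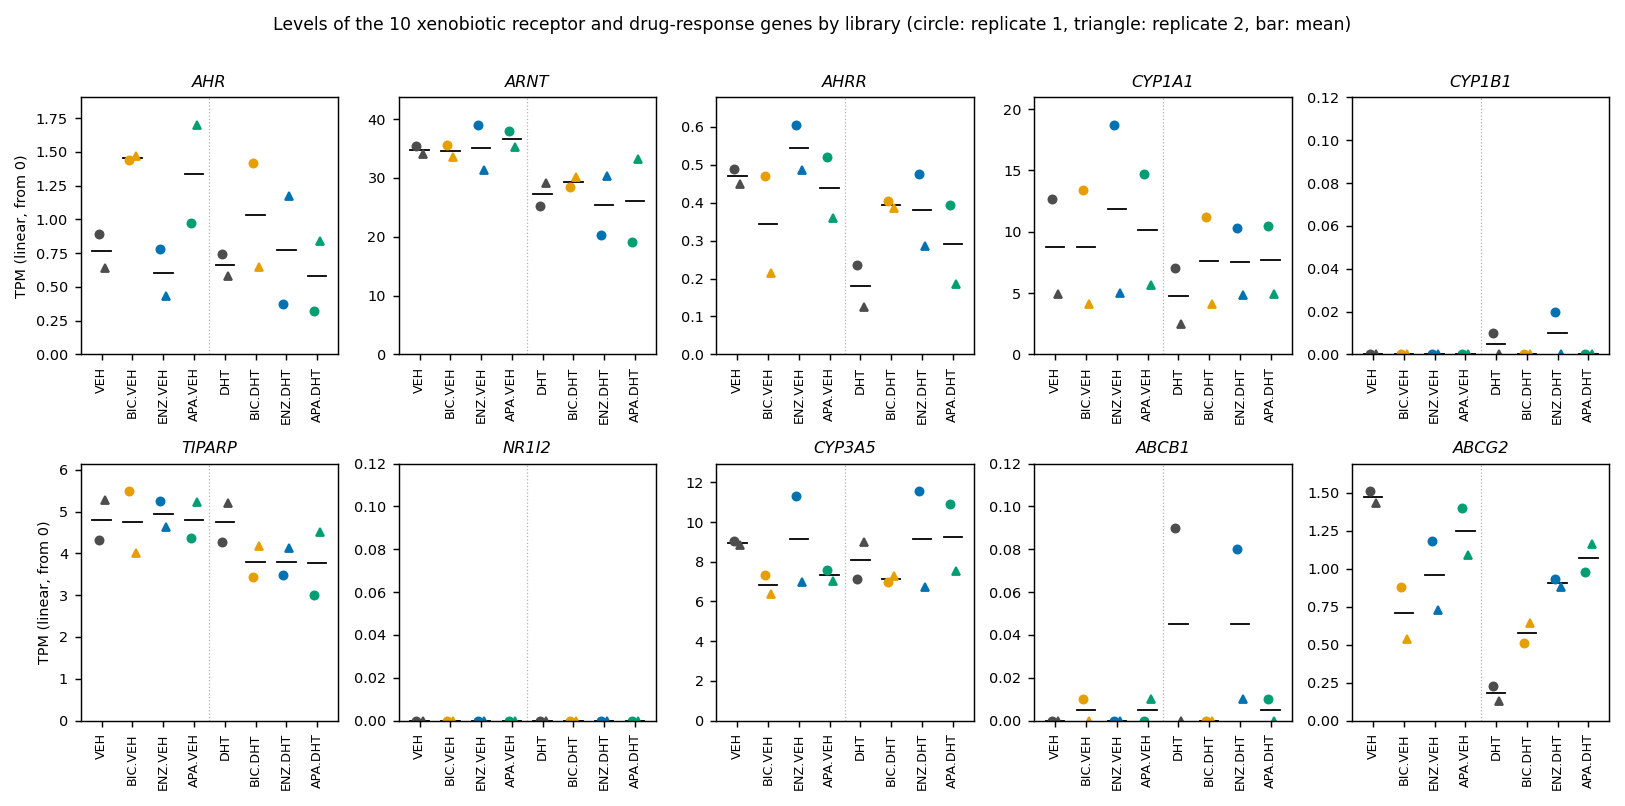
TPM of each of the 10 members on a linear axis from 0, by treatment group, with a circle for replicate 1, a triangle for replicate 2 and a bar for their mean; a dotted line parts the groups without DHT from those with it, and each panel has its own scale. ABCG2 sits at 0.13 and 0.23 TPM with DHT alone, below every other library, the first CYP1A1 replicate is above the second in all 8 groups, and NR1I2 is listed at 0 throughout.

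All 5 luminal prostate markers given here (KRT8, KRT18, EPCAM, FOLH1 and HOXB13) were present, with a summed level of 2012 to 2795 TPM. Markers of cells in which the PXR system is usually strong were low: 4 hepatocyte markers summed to 4.98 to 13.2 TPM, mostly TTR, with ALB at 1.54 TPM or less, and 3 intestinal markers to 0.05 to 0.47 TPM, with FABP1 at 0 in all libraries. Basal markers summed to 0 to 1.75 TPM, with TP63 at 0.04 TPM or less. The basal keratin KRT14 read 0.03 and 0.05 TPM in VEH and 1.68 and 1.59 in DHT (1.34, adjusted p = 0.00394) and was lower than with DHT under ENZ and APA, by -1.11 and -0.99 (adjusted p = 0.0124 and 0.0225), and of the luminal markers KRT18 was higher and FOLH1 lower with DHT (0.64 and -0.58, adjusted p = 0.00528 and 0.0217). KRT18 was lower than with DHT under BIC, ENZ and APA, by -0.79, -0.82 and -0.71 (adjusted p = 0.00422, 0.00158 and 0.00405). KRT8 was called lower than with DHT under BIC and ENZ, by -0.64 and -0.56 (limma adjusted p = 0.0317 and 0.0286). Several of these calls were lost in some fits that left out 1 library. These were KRT18 with DHT and under BIC, FOLH1 with DHT, KRT8 under BIC and ENZ, and KRT14 under ENZ and APA. The part of these markers in the results was not tested. The mitochondrial share of TPM was 15.9% to 17.8% without DHT, 19.2% to 22.3% in the first replicates with DHT and 14.7% to 17.0% in the second, and its part was not tested either. Of the fibroblast markers, COL1A1 ran from 11.4 to 32.6 TPM while COL1A2 and DCN were at or near 0, and of the immune markers CD68 ran from 0.92 to 12.1 TPM while PTPRC was at 0.10 TPM or less. Replicates of a group correlated at r = 0.964 to 0.982 over the tested genes. The first replicates of ENZ.DHT and APA.DHT stood apart from their second replicates for ARNT, AHR and CYP3A5, as given below. The androgen control KLK3 (prostate-specific antigen) rose with DHT by 6.42 on the log2 scale (limma adjusted p = 0.00016).

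AHR itself (chr7:17298652-17346147) was scarce. It read 0.89 and 0.64 TPM in VEH, 1.44 and 1.47 in BIC.VEH, 0.78 and 0.43 in ENZ.VEH, and 0.97 and 1.70 in APA.VEH. It read 0.74 and 0.58 TPM in DHT, 1.42 and 0.65 in BIC.DHT, 0.37 and 1.17 in ENZ.DHT, and 0.32 and 0.84 in APA.DHT. The replicates of a group spread as widely as the groups did, and BIC.VEH was the group whose libraries agreed at the high end. The widest AHR difference was between ENZ.VEH and BIC.VEH, at -0.62 on the log2(TPM + 1) scale (95% interval -1.24 to -0.002, limma adjusted p = 1). Across the 16 comparisons the smallest adjusted p of AHR was 0.668, and 0.488 with the replicate block. APA.DHT and ENZ.DHT had their low AHR value in the first replicate, where ARNT was low as well.

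ARNT (chr1:150809713-150876599), the dimer partner of AHR and of hypoxia-inducible factors, was the most abundant member. It read 35.5 and 34.0 TPM in VEH, and between 31.3 and 39.0 TPM in the antagonist groups without DHT. It read 25.3 and 29.2 TPM in DHT, 28.5 and 30.2 in BIC.DHT, 20.4 and 30.4 in ENZ.DHT, and 19.1 and 33.2 in APA.DHT. Both DHT libraries were below both VEH libraries, and the fitted difference was -0.34 (SE 0.24, interval -0.86 to 0.18, adjusted p = 0.403). No comparison of ARNT passed the test in the fit without the block or in the one with it, where the smallest adjusted p was 0.282.

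TIPARP (chr3:156674590-156706770) is a poly-ADP-ribose polymerase family member and one of the quickest AHR targets. It read 4.32 and 5.28 TPM in VEH and 4.27 and 5.21 TPM in DHT, so within each replicate number the DHT to VEH ratio was 0.988 and 0.987. With BIC, ENZ and APA on top of DHT it read 3.44 and 4.17, 3.48 and 4.13, and 3.01 and 4.51 TPM. Each of these 6 libraries was below the DHT library of its own replicate, by a ratio of 0.705 to 0.866. The fitted differences were -0.26, -0.26 and -0.28 (SE 0.21 each) and missed the threshold, with adjusted p = 0.642, 0.457 and 0.426, and 0.401, 0.314 and 0.272 with the block. The DHT difference of -0.01 became 0.08 when libraries were rescaled by median ratios, so it has no settled sign.

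AHRR (chr5:321714-438285) was below the filter. It read 0.49 and 0.45 TPM in VEH, 0.235 and 0.125 in DHT, 0.405 and 0.385 in BIC.DHT, 0.475 and 0.285 in ENZ.DHT and 0.395 and 0.185 in APA.DHT. Without DHT the antagonist libraries ran from 0.215 to 0.605 TPM. Both DHT libraries were below both VEH libraries, while the APA.DHT libraries overlapped with the DHT pair. In a fit of 34203 genes with no filter on low values, the DHT difference of AHRR was -0.32 (SE 0.12) and did not pass the test (limma adjusted p = 0.191), and it passed when the replicate block was added (SE 0.072, adjusted p = 0.0208). The values of AHRR carry 3 decimals, like those of 28 other symbols and unlike the rest of the table, and how these were made is not given in the sources used here. The locus is also shared with the readthrough gene PDCD6-AHRR, whose reads could not be told apart here.

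CYP1A1 (chr15:74719542-74725528) is the classic AHR-induced enzyme, a monooxygenase of polycyclic aromatic compounds. It read 12.6 and 4.91 TPM in VEH, 13.4 and 4.14 in BIC.VEH, 18.7 and 5.01 in ENZ.VEH and 14.7 and 5.64 in APA.VEH. It read 7.01 and 2.48 TPM in DHT, 11.2 and 4.10 in BIC.DHT, 10.3 and 4.82 in ENZ.DHT and 10.5 and 4.91 in APA.DHT. The first replicate was 2.13 to 3.73 times the second in all 8 groups, a wider gap than any group showed against its own control within a replicate. CD68 was likewise higher in the first replicate in 8 of 8 groups, by 1.25 to 6.77 times, and its part in the CYP1A1 values was not tested.

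Within a replicate number the order was the same on both sides. DHT stood at 0.555 of VEH in replicate 1 and at 0.505 in replicate 2. BIC.DHT stood at 1.59 and 1.65 times DHT, ENZ.DHT at 1.47 and 1.94 times, and APA.DHT at 1.49 and 1.98 times. On the log2(TPM + 1) scale the DHT difference was -0.77 with an SE of 0.77 and an interval of -2.46 to 0.93, which does not separate it from 0 (adjusted p = 0.58). With the replicate block the SE was 0.17 and the adjusted p was 0.00732. Without the block, leaving out 1 library moved it from -1.37 to -0.16. The differences of BIC.DHT, ENZ.DHT and APA.DHT from DHT were 0.58, 0.62 and 0.64, with adjusted p = 0.803, 0.638 and 0.645 without the block and 0.049, 0.0203 and 0.0188 with it. Without DHT, BIC, ENZ and APA differed from VEH by -0.06, 0.28 and 0.19 (SE 0.77 each, adjusted p = 1 with and without the block).

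The interaction, which is the DHT response under an antagonist minus the DHT response without one, was 0.64 for BIC, 0.34 for ENZ and 0.45 for APA in CYP1A1. None of these passed the test, with block-adjusted p = 0.159, 0.419 and 0.268. The call of CYP1A1 in DHT, BIC.DHT, ENZ.DHT and APA.DHT therefore holds only in the blocked fit, and whether the DHT response of CYP1A1 differs under an antagonist was not shown in either fit. CYP1A2, which lies next to CYP1A1 on chromosome 15, read 1.70 and 0.70 TPM in VEH and 0.57 and 0.29 in DHT, a ratio of 0.335 and 0.414. It was 1.82 to 3.24 times the DHT library of its own replicate with the antagonists, and its DHT difference of -0.59 did not pass the test (adjusted p = 0.336, 0.0592 with the block). The 2 genes are close relatives, and reads shared between them were divided by the authors' quantification.

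**Figure D2:**
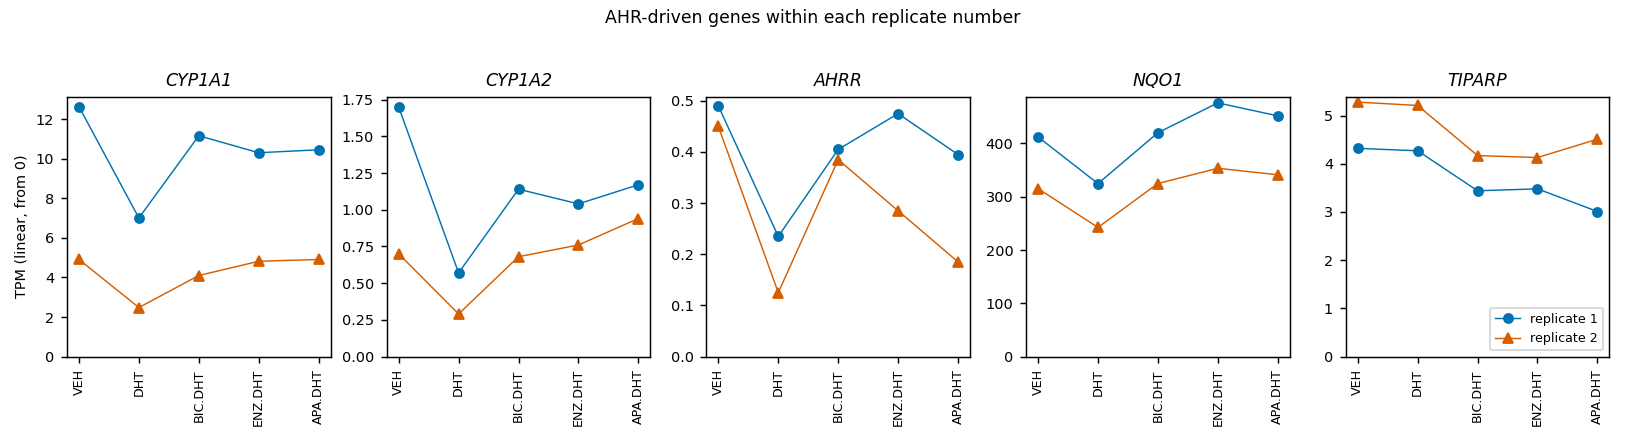
TPM on a linear axis from 0 of CYP1A1, CYP1A2, AHRR, NQO1 and TIPARP in VEH, DHT and the 3 antagonist groups with DHT, with lines joining the libraries of one replicate number (circles and blue for replicate 1, triangles and orange for replicate 2). CYP1A1, CYP1A2, AHRR and NQO1 dip at DHT in both replicates, while TIPARP stays level from VEH to DHT and is lower in the 3 antagonist groups. NQO1 was chosen after its values were seen. The other tested targets of the AHR list are not shown. These are ALDH1A3, STC2, UGT1A6, GSTA2, NFE2L2 and SLC7A5, and each had a higher mean in DHT than in VEH.

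CYP1B1 (chr2:38067509-38076151), the AHR-driven enzyme that also hydroxylates oestrogens, was listed at 0 in 14 of 16 libraries and reached at most 0.02 TPM. It was near 0 in every group, with no level from which a change could be read.

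The AHR battery beyond the members was followed in lists of the receptor's partners and targets. Of 9 chaperones, partners and coactivators all were tested, and 1 was called, ARNT2, the neuronal-type relative of ARNT. ARNT2 read 12.95 and 12.92 TPM in VEH and 6.24 and 5.42 in DHT, a difference of -1.03 (SE 0.24, adjusted p = 0.0203). That call was lost when VEH replicate 1, VEH replicate 2, DHT replicate 1 or DHT replicate 2 was left out (adjusted p = 0.115, 0.0915, 0.0692 and 0.132). With BIC, ENZ and APA on top of DHT, ARNT2 ran from 6.71 to 11.8 TPM and its differences from DHT did not pass the test.

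Of 12 further AHR targets 8 were tested, and ALDH1A3, a retinaldehyde dehydrogenase, was called. It read 18.9 and 13.2 TPM in VEH and rose to 85.9 and 75.3 in DHT, by 2.28 (SE 0.25, adjusted p = 0.000342). It read 26.2 and 21.1 TPM in BIC.DHT, 18.1 and 16.9 in ENZ.DHT and 18.3 and 13.5 in APA.DHT, with differences from DHT of -1.73, -2.14 and -2.29 (adjusted p = 0.00436, 0.000547 and 0.000362). ALDH1A3 thus went the opposite way to CYP1A1. The BIC difference was lost when BIC.DHT replicate 2 was left out (adjusted p = 0.0581). The median difference of the 8 tested targets was 0.29 for DHT against VEH, beside -0.10 over all genes tested.

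NQO1, a quinone reductase driven by AHR and NRF2, is named after its values were seen. It read 412 and 315 TPM in VEH, 325 and 242 in DHT, 420 and 325 in BIC.DHT, 476 and 353 in ENZ.DHT and 452 and 341 in APA.DHT. Its first replicate was above its second in all 8 groups, by 1.29 to 1.81 times. Its DHT difference of -0.36 and its antagonist differences of 0.40, 0.55 and 0.48 were called with the block (adjusted p = 0.0351, 0.0409, 0.00467 and 0.00955) and not without it (0.533, 0.647, 0.309 and 0.384). STC2, another target named after its values were seen, went the other way. It read 14.05 and 15.4 TPM in VEH, 17.49 and 28.35 in DHT, 11.81 and 14.31 in ENZ.DHT and 8.06 and 15.5 in APA.DHT. STC2 was called lower than with DHT under ENZ and APA, only with the block.

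On the PXR side, NR1I2 (chr3:119782101-119818487) was listed at 0 in all 16 libraries. NR1I3, the related constitutive androstane receptor, reached at most 0.15 TPM. Among 11 partners and corepressors 7 were tested and none was called without the block in any of the comparisons of DHT and the antagonists. With the block VDR, named after its values were seen, was called lower than with DHT under ENZ and APA. It read 8.01 and 8.13 TPM in DHT, 3.12 and 5.76 in ENZ.DHT and 3.59 and 6.45 in APA.DHT. The heterodimer partner RXRA was present at 51.4 to 92.7 TPM and RXRB at 25.9 to 43.0 TPM. The DHT differences of -0.40 in RXRA and -0.31 in RXRB were called only with the block (adjusted p = 0.0406 and 0.0329).

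CYP3A5 (chr7:99648194-99679996), a steroid- and drug-hydroxylating enzyme of the CYP3A family, had the second highest median among the members although the receptor that drives it in liver was not seen. It read 9.04 and 8.85 TPM in VEH, 7.32 and 6.37 in BIC.VEH, 11.3 and 6.96 in ENZ.VEH and 7.60 and 7.04 in APA.VEH. It read 7.13 and 9.02 TPM in DHT, 7.0 and 7.27 in BIC.DHT, 11.6 and 6.71 in ENZ.DHT and 10.9 and 7.54 in APA.DHT. The high values were the first replicates of ENZ.VEH, ENZ.DHT and APA.DHT, and the second replicates of these groups lay among the other groups. The DHT difference was -0.14 (interval -0.72 to 0.44, adjusted p = 0.792), and BIC.VEH differed from VEH by -0.34 (interval -0.92 to 0.23, adjusted p = 1). The widest CYP3A5 value over the 16 comparisons, 0.42 for the interaction of APA with DHT, was not called. CYP3A5 overlaps the gene ZSCAN25, and whether the quantification used the strand is not given in the sources used here.

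CYP3A4, the main hepatic enzyme and the standard PXR target, reached at most 0.18 TPM, and CYP2B6 likewise at most 0.18 TPM. CYP2A6 and SULT2A1 were listed at 0 in all libraries. Of 18 PXR targets 8 were tested. GSTA1, a glutathione transferase, was called higher in ENZ.DHT and APA.DHT than in DHT.

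GSTA1 read 23.7 and 38.5 TPM in VEH, 11.4 and 18.6 in DHT, 24.8 and 47.1 in BIC.DHT, 38.3 and 40.7 in ENZ.DHT and 43.2 and 41.7 in APA.DHT. It was higher than with DHT by 1.38 under ENZ and 1.48 under APA (SE 0.38, adjusted p = 0.0459 and 0.0376). The DHT libraries were the lowest pair among these groups, and the difference of -1.0 between DHT and VEH was called only with the block (adjusted p = 0.0046). These calls lie near the threshold. They were lost in 12 and 4 of 16 fits that left out 1 library, up to 0.225 and 0.201 without DHT replicate 1. GSTA1 belongs to a family of near-identical genes, so the division of reads with GSTA2 is uncertain.

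ABCB1 (chr7:87503017-87713295), the multidrug pump P-glycoprotein, was listed at 0 in 10 of 16 libraries. Its highest values were 0.09 TPM in DHT replicate 1 and 0.08 TPM in ENZ.DHT replicate 1, with 0.01 TPM or less in all others. No group held it in both libraries at more than 0.01 TPM.

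ABCG2 (chr4:88090264-88231626), a half-transporter of the ATP-binding cassette family that exports drugs, urate and porphyrins, gave the largest response among the members. It read 1.51 and 1.43 TPM in VEH, 0.88 and 0.54 in BIC.VEH, 1.18 and 0.73 in ENZ.VEH and 1.40 and 1.09 in APA.VEH. It read 0.23 and 0.13 TPM in DHT, 0.51 and 0.64 in BIC.DHT, 0.93 and 0.88 in ENZ.DHT and 0.98 and 1.16 in APA.DHT. Both DHT libraries were below all 14 others, and both VEH libraries were above all 14 others. These are low levels, and 6 of 16 libraries reached 1 TPM, none of them DHT alone, so that ABCG2 passed the filter through the groups in which it is high. In a fit without that filter the same calls were made.

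The mean of ABCG2 fell from 1.47 ± 0.0566 TPM (SD, n = 2) in VEH to 0.18 ± 0.0707 in DHT, which is 12.2% of the VEH level and an 8.17-fold lower mean. The ratio was 6.57-fold in replicate 1 and 11-fold in replicate 2. On the log2(TPM + 1) scale, which understates changes of low genes, the difference was -1.07 (SE 0.18, 95% interval -1.46 to -0.67, limma adjusted p = 0.00372, 0.00095 with the block). It was called in all 16 fits that left out 1 library, with adjusted p up to 0.0371, and not when only the 4 libraries compared were fitted (adjusted p = 0.056). Whether fewer cells held the RNA or each cell held less of it cannot be told apart in these bulk libraries. COL1A1, which stands among the fibroblast markers, was also lower with DHT, at 11.4 and 15.6 TPM against 32.6 and 25.9 in VEH (-1.07, adjusted p = 0.00357), while COL1A2 was listed at 0 in 15 libraries and DCN in 13. Against DHT, COL1A1 was called higher under ENZ and APA, by 0.84 and 0.70 (adjusted p = 0.0146 and 0.0346), and not under BIC (0.46, adjusted p = 0.238). Both of these COL1A1 calls, under ENZ and APA, were lost in some fits that left out 1 library. The part of COL1A1 in the ABCG2 values was not tested.

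With each antagonist on top of DHT, ABCG2 read higher than with DHT alone in both replicates. BIC.DHT reached 0.575 ± 0.0919 TPM, or 39.1% of the VEH mean, ENZ.DHT 0.905 ± 0.0354, or 61.6%, and APA.DHT 1.07 ± 0.127, or 72.8%. In replicate 1 these were 2.22, 4.04 and 4.26 times the DHT library, and in replicate 2 they were 4.92, 6.77 and 8.92 times. No library of an antagonist group overlapped with DHT or with VEH. The differences from DHT were 0.42 for BIC (interval 0.02 to 0.81, adjusted p = 0.297, 0.131 with the block), 0.69 for ENZ (0.30 to 1.09, adjusted p = 0.0348, 0.0106 with the block) and 0.81 for APA (0.42 to 1.204, adjusted p = 0.0188, 0.00499 with the block).

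The ENZ and APA calls were sensitive to the libraries fitted, while the differences kept their direction. With 1 library left out they ran from 0.63 to 0.75 for ENZ and from 0.75 to 0.87 for APA. These fits had no block. Leaving out a library of a compared group leaves 1 in that group, which by itself weakens the test. The ENZ call was lost in 8 of 16 fits that left out 1 library, with adjusted p = 0.172 and 0.0948 without DHT replicate 2 and 1, 0.163 and 0.0706 without ENZ.DHT replicate 1 and 2, and 0.0509 to 0.0514 without a VEH or BIC.DHT library. The APA call was lost without DHT replicate 1 (0.0644) or 2 (0.12) and without APA.DHT replicate 1 (0.0589) or 2 (0.0667). Without the first replicates of both ENZ.DHT and APA.DHT, which stood apart for ARNT, the differences were 0.67 and 0.87 (adjusted p = 0.123 and 0.0506).

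Without DHT, the antagonist groups lay below VEH. BIC.VEH stood at 0.71 TPM on average, or 48.3% of VEH, ENZ.VEH at 0.955, or 65.0%, and APA.VEH at 1.25, or 84.7%. In both replicates BIC.VEH was lowest, APA.VEH highest and ENZ.VEH between them. The differences from VEH were -0.54 for BIC (interval -0.93 to -0.14), -0.35 for ENZ (-0.74 to 0.05) and -0.14 for APA (-0.53 to 0.25), each with limma adjusted p = 1 with and without the block. The interval of BIC.VEH leaves out 0 before adjustment, and none of the differences passed the test over all genes.

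Under an antagonist, the ABCG2 levels with and without DHT were closer to each other than those of DHT and VEH. BIC.DHT was 0.51 and 0.64 TPM against 0.88 and 0.54 in BIC.VEH, and APA.DHT was 0.98 and 1.16 against 1.40 and 1.09. The interaction was 0.95 for BIC, 1.04 for ENZ and 0.95 for APA (SE 0.25 each). These missed the threshold without the block (adjusted p = 0.126, 0.0745 and 0.115) and passed it with the block (0.0381, 0.0193 and 0.0287).

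**Figure D3:**
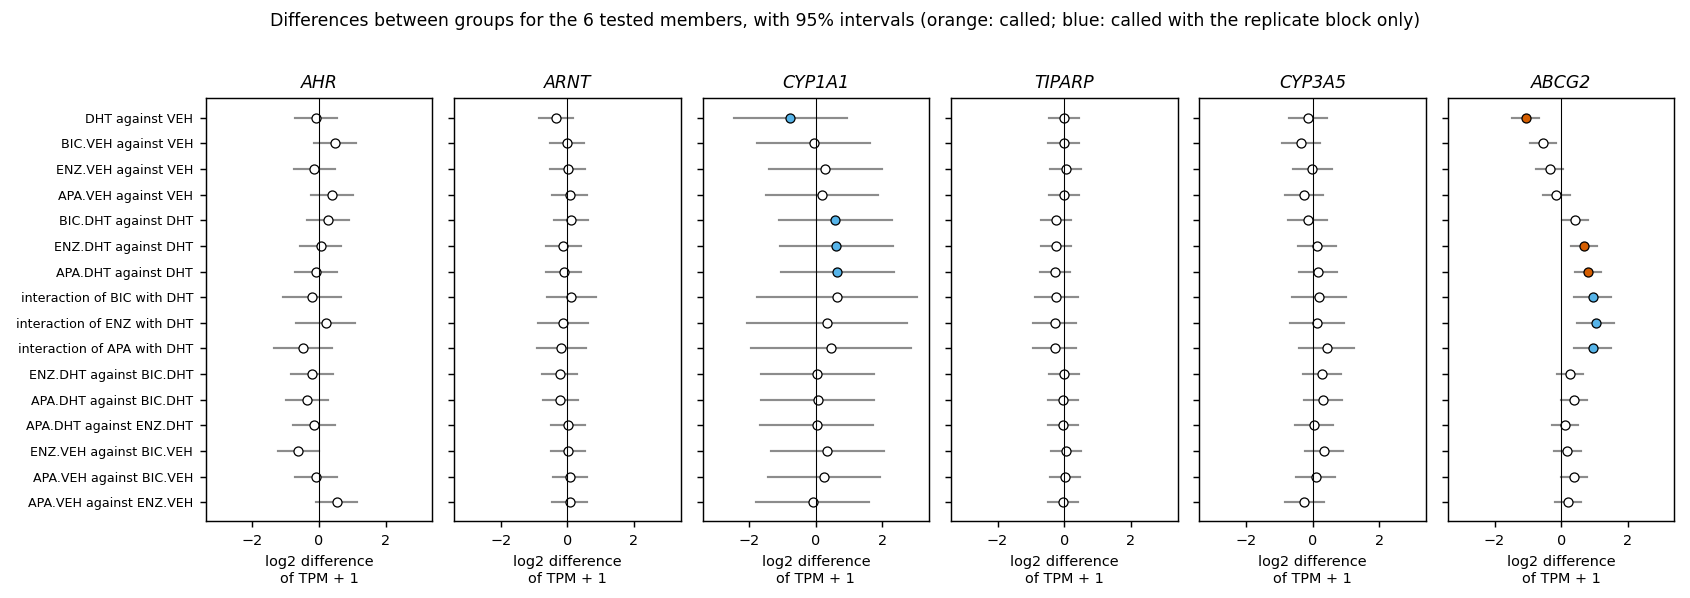
Fitted difference on the log2(TPM + 1) scale (x axis) of the 6 tested members in each of 16 comparisons (y axis), from the fit without the replicate block, with 95% intervals as bars; orange points were called, blue points were called only with the block. ABCG2 holds the 3 orange points, CYP1A1 has wide intervals and 4 blue points, and the intervals of AHR, ARNT, TIPARP and CYP3A5 span 0 except for ENZ.VEH against BIC.VEH in AHR.

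Read against all genes, the calls of the members were few. For DHT against VEH 1 of the 6 tested members was called, with 10.3% of all tested genes called and 6.64% called lower, the direction of ABCG2. With the block 2 were called, with 27.4% of all genes. Rescaling by median ratios turned the split of calls over all genes in this comparison from 604 higher and 1105 lower to 996 higher of 1888, and left ABCG2 called lower. For BIC.DHT, ENZ.DHT and APA.DHT against DHT, 0, 1 and 1 members were called, with 3.13%, 9.65% and 8.36% of all genes, of which 4.74% and 4.25% were called higher under ENZ and APA. With the block 1, 2 and 2 members were called, with 13.3%, 29.2% and 27.3% of all genes. For the interactions of BIC, ENZ and APA, no member was called without the block, with 0.986%, 1.63% and 1.42% of all genes, and 1 member each with it, with 6.39%, 9.91% and 10.1%. The limma fit without the block gave 1 member an unadjusted p under 0.05 in each of these comparisons, and it was ABCG2 each time. These comparisons share the VEH and DHT libraries, so they do not count as separate evidence.

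Without DHT no member was called for BIC, ENZ or APA against VEH, in limma fits with or without the block, and 1, 0 and 0 members had an unadjusted p under 0.05. Calls were about as rare over all tested genes, with 0%, 0% and 0.00601% called, and 0.018%, 0% and 0.012% with the block. None of the 59 tested genes of the 6 lists was called in these comparisons with or without the block. Without the block 0 of them had an unadjusted p under 0.05, and with it 4, 1 and 1 did. At 10 µM for 48 h, a shift of AHR, PXR or transporter genes by the drugs themselves was not detectable with 2 libraries a group. The androgen controls KLK2 and KLK3 were not called under BIC alone without the block either, though their values were higher. KLK2 read 4.78 and 3.60 TPM in VEH and 36.2 and 33.7 in BIC.VEH, and KLK3 53.0 and 24.0 against 358 and 206. The lack of a call is therefore no sign that a drug alone had no effect. For CYP1A1 the interval under ENZ without the block ran from -1.42 to 1.97, and with the block from -0.10 to 0.66.

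The 3 antagonists were compared with each other at the same dose and time, in 6 pairs. ENZ and APA share a diarylthiohydantoin core, with a cyclobutane ring in APA where ENZ has geminal methyl groups and a pyridine ring where ENZ has a benzene ring, and BIC is an arylpropionamide. With DHT, ABCG2 was higher under ENZ than under BIC by 0.28 (interval -0.12 to 0.67, adjusted p = 0.93), under APA than under BIC by 0.39 (0.0006 to 0.79, adjusted p = 1), and under APA than under ENZ by 0.12 (-0.28 to 0.51, adjusted p = 1). Without DHT these differences were 0.19, 0.40 and 0.21 (adjusted p = 1 each), with intervals of -0.20 to 0.58, 0.003 to 0.79 and -0.19 to 0.60. APA read above ENZ and ENZ above BIC in both replicates with and without DHT, and no pair passed the test. In CYP1A1 the pairs differed by -0.09 to 0.34, with an SE of 0.77. No member was called in any pair, where 0.00601%, 0% and 0.00601% of all genes were called with DHT and 0%, 0.012% and 0.00601% without it. With the block those shares were 0.012%, 0.0541% and 0.00601% with DHT and 0.00601%, 0.0842% and 0.00601% without it.

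Among 18 other drug transporters 11 were tested. DHT raised ABCC4 (MRP4, an exporter of cyclic nucleotides and steroid sulphates), ABCB6 (a porphyrin transporter) and SLCO4A1 (an organic anion transporter). ABCC4 read 35.4 and 32.7 TPM in VEH and 100.4 and 113.9 in DHT, a rise of 1.62 (SE 0.16, adjusted p = 0.000158). It read 38.7 and 41.5 TPM in BIC.DHT, 24.6 and 32.1 in ENZ.DHT and 28.0 and 33.5 in APA.DHT, with differences from DHT of -1.39, -1.89 and -1.77 (adjusted p = 0.0011, 7.49e-05 and 0.000112). All libraries of the antagonist groups lay far below the DHT pair. These ABCC4 calls held in all 16 fits that left out 1 library.

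The blocked fit called 6 of the 11 tested transporters for DHT against VEH, 3 of them higher and 3 lower, beside 27.4% of all genes. The 3 lower ones are named after their values were seen. ABCC6 (MRP6) read 8.03 and 5.95 TPM in VEH and 3.19 and 2.30 in DHT, a difference of -1.09 (adjusted p = 0.000602 with the block and 0.117 without it). ABCC10 (MRP7) read 18.8 and 16.3 TPM in VEH and 11.4 and 9.27 in DHT (-0.71, adjusted p = 0.00039 and 0.0707). ABCA2 differed by -0.44 (adjusted p = 0.00808 and 0.208). In the blocked fit ABCC6 was higher than with DHT under BIC, ENZ and APA by 0.66, 0.99 and 0.84 (adjusted p = 0.0198, 0.00109 and 0.00302), and ABCC10 by 0.36, 0.68 and 0.74 (0.0312, 0.000564 and 0.000366).

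ABCB6 rose by 0.76 and SLCO4A1 by 0.61 with DHT (adjusted p = 0.0287 and 0.0145), and SLCO4A1 was lower than with DHT under ENZ and APA, by -0.54 and -0.65 (adjusted p = 0.0302 and 0.0127). Leaving out 1 library ended the ABCB6 call in 4 fits (highest adjusted p = 0.158, without DHT replicate 1). It ended the SLCO4A1 calls in 3, 4 and 1 fits, up to 0.118, 0.182 and 0.107 without DHT replicate 2. The median difference of the 11 tested transporters was 0.03 for DHT against VEH beside -0.10 over all genes. Against DHT it was -0.35, -0.36 and -0.19 for BIC, ENZ and APA beside 0.00, -0.01 and 0.00 over all genes. ABCG2 and ABCC4, both drug pumps of the same superfamily, moved in opposite directions under DHT.

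**Figure D4:**
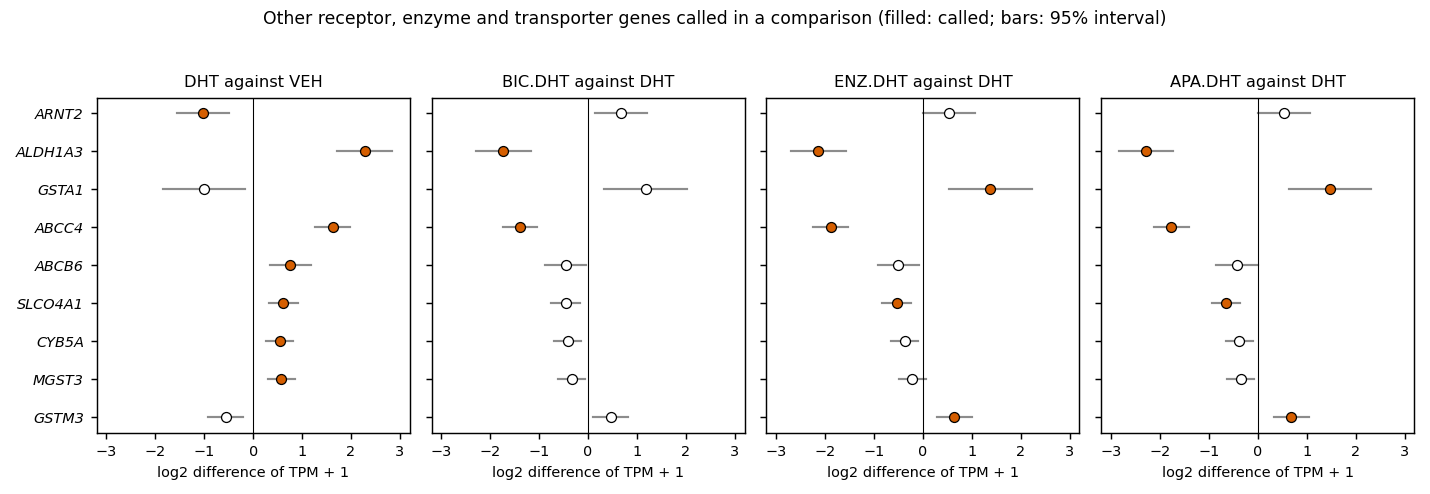
Fitted difference on the log2(TPM + 1) scale (x axis) of 9 list genes called in at least 1 of 4 comparisons, for DHT against VEH and for BIC.DHT, ENZ.DHT and APA.DHT against DHT, with 95% intervals as bars and filled points for calls. ALDH1A3 and ABCC4 stand at 2.28 and 1.62 with DHT and between -1.39 and -2.29 with the antagonists, while ARNT2, GSTA1 and GSTM3 lie on the other side of 0.

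Of 22 genes for the redox partners of cytochromes P450 and for conjugation, 16 were tested. CYB5A, the cytochrome b5 that passes electrons to CYP enzymes, rose with DHT from 303 and 315 TPM to 415 and 488, by 0.54 (adjusted p = 0.0183). MGST3, a microsomal glutathione transferase, rose from 76.0 and 86.5 TPM to 128.1 and 114.8, by 0.57 (adjusted p = 0.0139). GSTM3 read 163 and 159 TPM in DHT and was higher under ENZ (278 and 229 TPM) and APA (288 and 235 TPM), by 0.64 and 0.68 (adjusted p = 0.0317 and 0.0261). GSTP1, silenced by methylation in most prostate cancers, was at 0.16 TPM or less. The CYB5A and MGST3 calls were lost in 3 and 2 of 16 fits that left out 1 library (up to 0.145 without DHT replicate 2 and 0.128 without VEH replicate 1), and the GSTM3 calls in 3 each (up to 0.214 without ENZ.DHT replicate 1 and 0.158 without APA.DHT replicate 1). Over the 6 lists together 7 of 59 tested genes, or 11.9%, were called with DHT without the block, beside 10.3% of all genes. With the block 24, or 40.7%, were called, beside 27.4% of all genes.

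Among all tested genes, the 3 whose log2(TPM + 1) values followed ABCG2 most closely over the 16 libraries were ITPR1, an inositol trisphosphate receptor calcium channel (r = 0.94, 6.79 to 30.1 TPM), AL161910.1 (r = 0.939, 0.41 to 5.88 TPM) and BST2, the membrane protein tetherin (r = 0.931, 1.04 to 4.59 TPM). These libraries share treatments, so the values describe a common pattern over 8 groups and are given without a test.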

How the data were processed

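Polyadenylated RNA of 16 LNCaP cultures was sequenced as 125 bp read pairs, about 40 M per library per the labels. The authors trimmed reads with Trim Galore 0.6.5, aligned them to GRCh38 with STAR 2.7.2b and estimated expression with RSEM 1.3.3 against Ensembl 99 (Gencode 33). The deposited values are TPM, given for 60642 symbols. The totals ran from 976190 to 983114 TPM, and read depth per gene is unknown, so no counting interval was possible. Groups came from the treatment labels of the samples, and replicate numbers came from the sample titles.

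TPM were tested as log2(TPM + 1) with limma 3.58.1 (R 4.3.3, trend, 8 group means, all 16 libraries) over 16636 genes at 1 TPM or more in 2 or more libraries. A gene was called at a Benjamini-Hochberg adjusted p under 0.05 over all genes tested. The code was tested on simulated data. Differences between replicates correlated at 0.204 to 0.635 over all 28 pairs of groups, each above 0.1, and the numbers were therefore taken to pair the samples; fits with the number as a block are given beside results they change. Alternatives changed the pseudocount (0.1), the filter, the scaling, the libraries fitted and each single library. The members and the lists were chosen with earlier results of these data known. Named list genes were those called, up to 4 a list and comparison; items withheld for evaluation are not reported here. Promoter windows and positions came from RefSeq.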

Additional observations from a re-analysis of the deposited data

Results flagged for a closer look

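The DHT response differed under the antagonists for ABCC4 and ALDH1A3 by the interaction test, taken as the response with the antagonist minus the response without it. For ABCC4 it was -1.64 with BIC, -1.96 with ENZ and -1.86 with APA (limma adjusted p = 0.00655, 0.00189 and 0.00269). For ALDH1A3 it was -2.04, -2.34 and -2.24 (adjusted p = 0.0256, 0.00838 and 0.0117). The ALDH1A3 value for BIC lost its call in 7 of 16 fits that left out 1 library, up to adjusted p = 0.118 without BIC.VEH replicate 1, and that for APA in 3, up to 0.0649 without APA.VEH replicate 1. With the replicate block the DHT response of ABCG2 differed as well, by 0.95, 1.04 and 0.95 with BIC, ENZ and APA, opposite in sign to those of ABCC4.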

How the results depend on the processing

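With the replicate block, which takes the libraries as paired, 2, 1, 2 and 2 members were called for DHT against VEH and for BIC.DHT, ENZ.DHT and APA.DHT against DHT, and 1 for each interaction, in place of 1, 0, 1, 1 and 0; no other call among the 6 tested members changed with it. AHRR, below the filter, passed with DHT in the unfiltered fit with the block (adjusted p = 0.0208) and not without it (0.191). Raising the filter to a mean of 5 TPM removed ABCG2 from the genes tested and left 0 for DHT, ENZ.DHT and APA.DHT, and fitting only the groups compared also left 0 for these. A pseudocount of 0.1 gave 1 member (ABCG2) for the ENZ interaction. Leaving out 1 library gave 0 to 1 members for ENZ.DHT and for APA.DHT. Without the first replicates of ENZ.DHT and APA.DHT, chosen after seeing the data, both were 0. That setting also turned CYP1A1 differences that had passed no test: the ENZ and APA interactions to -0.14 and -0.023, and ENZ.DHT and APA.DHT against BIC.DHT to -0.44 and -0.41. Median-ratio scaling turned TIPARP with DHT to 0.084.

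Leaving out 1 library changed the sign of differences that were not called without the block. For DHT against VEH, AHR ran from -0.19 to 0.016, TIPARP from -0.13 to 0.10 and CYP3A5 from -0.29 to 0.011. CYP1A1, whose replicates differ, ran from -0.80 to 0.68 in BIC.VEH, -0.58 to 1.13 in ENZ.VEH and -0.44 to 0.81 in APA.VEH against VEH, and from -0.050 to 1.205 in BIC.DHT against DHT. It kept its sign from -1.37 to -0.16 in DHT against VEH, from 0.0185 to 1.22 in ENZ.DHT and from 0.039 to 1.24 in APA.DHT against DHT, comparisons called only with the block. Its interactions ran from -0.11 to 1.38 (BIC), -0.51 to 1.199 (ENZ) and -0.17 to 1.08 (APA). Its pairs with DHT ran from -0.59 to 0.67 (ENZ against BIC), -0.56 to 0.69 (APA against BIC) and -0.46 to 0.50 (APA against ENZ), and without DHT from -0.52 to 1.196, -0.50 to 0.99 and -0.95 to 0.76. For CYP1A1, leaving out 1 library without the block set 1 replicate number in a group against both in the other groups. Its first replicate was 2.13 to 3.73 times its second in all 8 groups, so its differences shift with such an imbalance. Why its replicates differ, and the cause of the shifts in the other members, was not tested. A lone library was assumed to vary like the other groups. The ABCG2 differences for DHT, ENZ.DHT and APA.DHT kept their direction in every setting that tested the gene.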
